A study of Solanum lycopersicum with 9 samples.

Results

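The 4 histone marks mapped in leaves of the tomato *ddm1* mutant were compared with one another. The 5 peak lists labelled ddm1 mutant were used, 2 for H3K27me3 (replicates 1 and 2) and 1 each for H3K27me1, H3K9me2 and H3K9ac. On the 12 numbered chromosomes they held 171929 peaks, of 266074 peaks in the 9 lists of the series. All lists came from chromatin immunoprecipitation and sequencing (ChIP-seq) of the fourth leaf, taken from plants 1 month old. The *ddm1* plants carried mutations in both tomato copies of the gene (*Slddm1a* and *Slddm1b*) in the cultivar M82, and the wild type (WT) was M82 itself. The 4 WT lists, 1 for each mark, are given only to show where the mutant differed. Whether a library came from 1 plant or from pooled plants is not given in the sources used here.

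DDM1 is a chromatin remodeller of the SWI/SNF family, and in *Arabidopsis* it is needed to keep DNA methylation and the silencing of transposable elements. H3K9me2 and H3K27me1 are the marks of constitutive heterochromatin, the compact and repeat-rich chromatin around plant centromeres, where H3K9me2 and non-CG DNA methylation maintain each other. H3K27me3 is written by Polycomb repressive complexes and covers silent genes, many of them developmental regulators (facultative heterochromatin). H3K9ac lies at the start of active genes. H3K27me1 and H3K27me3 are states of one lysine and H3K9me2 and H3K9ac are states of another, so a single histone tail can carry only one of each pair, whereas a peak can hold both where cells, alleles or neighbouring nucleosomes differ.

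Some features of the lists bear on every comparison. The library labelled as the second *ddm1* H3K27me3 replicate has peak names that give the wild-type genotype, so each H3K27me3 value is given for both replicates. On 1 measure it lay farther from the WT list than replicate 1 did, with 2.93% of its covered length in the 10% of each chromosome next to the ends, against 10.4% in replicate 1 and 20.4% in the WT list. In median peak length it lay nearer to the WT list (906 bp, against 509 bp in replicate 1 and 909 bp in the WT list). The genotype of this library was not tested, and each mean and SD with n = 2 takes it as labelled. Every other mark had 1 list. The methods of the study name replicate ChIP-seq experiments in both genotypes, and whether a single list stands for one experiment or a pool is not given in the sources used here. There was therefore no replicate error for these marks and no significance test was possible. The 95% Wilson intervals given with shares cover counting error only and take peaks as independent, and read depth is unknown. The shortest H3K9me2 peak measured 500 bp in *ddm1* and 700 bp in WT, so the H3K9me2 lists of the genotypes differ in the lengths they hold.

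The lists differed widely in size. H3K9ac held 76513 peaks that covered 42.1 Mb, with a median length of 418 bp. H3K27me3 held 32491 peaks and 23.6 Mb in replicate 1 (median 509 bp) and 46317 peaks and 128 Mb in replicate 2 (median 906 bp). H3K27me1 had 9247 short peaks (median 196 bp) that covered 2.02 Mb, and H3K9me2 had 7361 peaks (median 731 bp) that covered 6.48 Mb. The smallest deposited −log10 q was 1.00 and 1.03 in the broad H3K27me3 and H3K9me2 lists, so these hold peaks with a q above 0.05, whereas it was 1.31 in the H3K27me1 and H3K9ac lists. A q of 0.01 or lower was reached by 97.6% of H3K9ac peaks, 87.6% of H3K27me1 peaks, 48.8% and 62.2% of H3K27me3 peaks and 26.8% of H3K9me2 peaks.

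Larger lists meet more often, so each share of overlapping peaks was set against the share obtained when the second list was slid along the chromosomes by 20 fixed displacements of 100 to 1000 kb in both directions. The ratio of the observed to the mean displaced share is 1 where the 2 marks meet as often as they do after sliding. The observed share lay outside the range of the 20 displaced shares for each of the 6 mark pairs.

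The 2 marks of constitutive heterochromatin met far more often than after displacement. Of the H3K9me2 peaks, 12.3% (909 of 7361, interval 11.6% to 13.1%) shared at least 1 bp with an H3K27me1 peak, against 0.910% to 1.66% after displacement, a ratio of 9.44. In the other direction 11.0% of H3K27me1 peaks (1018 of 9247) lay on H3K9me2, a ratio of 10.3. Most peaks of each list were therefore without the other mark, and the 2 lists shared 224 kb. The WT ratios were 7.13 for H3K9me2 peaks (811 of 9767) and 7.91 for H3K27me1 peaks (922 of 6044). The summits of H3K27me1 lay inside H3K9me2 peaks in 9.60% of cases, against 0.865% after displacement. H3K9me2 peaks that held H3K27me1 were longer (median 859 bp against 719 bp) and had a slightly higher median fold enrichment (2.55 against 2.44). Longer peaks also met H3K27me1 more often after displacement. From the shortest to the longest quartile of H3K9me2 peaks the ratio was 9.06, 10.7, 8 and 10.0. The ratio rose with the strength of the H3K9me2 peak, from 6.60 in the quartile with the highest q-values to 13.6 in the quartile with the lowest. When the way from the chromosome end to the middle was divided into 4 equal zones, the ratio was 12.2 in the outermost and 8.73 in the innermost zone.

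H3K9me2 and H3K9ac, 2 states of the same lysine, had the lowest ratio of the 6 pairs. Only 51 of 7361 H3K9me2 peaks (0.693%, interval 0.527% to 0.910%) touched an H3K9ac peak, whereas 10.7% to 11.9% did so after displacement, a ratio of 0.061. The WT lists had no such pair (0 of 9767 H3K9me2 peaks, which allows a share of up to 0.0307%, or 3 peaks), where the mean share after displacement was 4.40%. With 1 list per genotype and displaced shares that differ, the difference between the genotypes has no error and was not tested. The shortage ended close to the peak: the ratio was 0.298 for H3K9me2 peaks whose nearest H3K9ac peak lay 1 to 500 bp away, 0.800 at 501 to 1000 bp and 1.48 at 2001 to 5000 bp. In *ddm1* the median H3K9me2 peak thus lay 5.81 kb from an H3K9ac peak (4.95 kb after displacement), and in WT it lay 36.7 kb away (46.4 kb after displacement).

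H3K9me2 peaks also rarely met H3K27me3. The share was 0.625% (46 peaks) for replicate 1 and 4.77% (351 peaks) for replicate 2, against means of 5.92% and 18.8% after displacement. The ratios were 0.106 and 0.254 (0.180 ± 0.105, SD, n = 2), and the WT ratio was 0.026 (18 of 9767 peaks). The 2 replicates thus differed more in the share than in the ratio, and both ratios stayed far below 1. By number, the 46 peaks at replicate 1 were slightly fewer than the 51 at H3K9ac. Where the nearest H3K27me3 peak lay 1001 to 2000 bp away, the ratio was 0.642 for replicate 1 and 1.03 for replicate 2. Only the nearest peak is counted there, so these values do not show where the shortage ended. After displacements of 5, 10 and 100 kb the shares were 5.71%, 5.31% and 5.80% for replicate 1. For replicate 2 they were 10.5%, 12.4% and 16.3%, all below its mean of 18.8%. With *ddm1* H3K9me2 peaks of at least 700 bp (4015 of 7361), the shortest length in WT, the ratios were 9.34 at H3K27me1, 0.103 and 0.227 at the H3K27me3 replicates and 0.060 at H3K9ac, a choice made after seeing the data.

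H3K27me1 and H3K27me3, states of another lysine, behaved in a like manner. H3K27me3 touched 0.508% of H3K27me1 peaks in replicate 1 (47 of 9247) and 3.87% in replicate 2 (358 of 9247), with ratios of 0.144 and 0.250 (0.197 ± 0.075, SD, n = 2). The WT ratio was 0.036 (9 of 6044 peaks). Peaks of H3K27me3 found in both replicates had lower ratios at H3K27me1 than those found in 1 replicate. The ratio was 0.117 (32 of 26697 peaks) against 0.311 (14 of 5794) in replicate 1, and 0.118 against 0.510 in replicate 2. The shared peaks were also longer, with medians of 551 against 382 bp and of 2249 against 589 bp. In replicate 2 the ratio fell with length, from 0.914 in the shortest to 0.122 in the longest quartile. In replicate 1 it did not fall steadily (0.098, 0.275, 0.143 and 0.110). The part of length in this difference was not tested.

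H3K27me1 and H3K9ac met somewhat less often than after displacement, and this value depended on the measure. Of the H3K27me1 peaks, 4.40% (407 of 9247, interval 4.00% to 4.84%) touched an H3K9ac peak, against 5.74% to 6.93% after displacement, a ratio of 0.698. In WT 4 of 6044 did so (0.066%, against 2.18% after displacement, ratio 0.030). By summits the *ddm1* pair lay on both sides of 1. Of the H3K27me1 summits 3.56% lay inside H3K9ac peaks, a ratio of 0.788 (interval 0.708 to 0.876). Of the 76513 H3K9ac summits 236 lay inside H3K27me1 peaks (0.308%, against 0.223% after displacement), a ratio of 1.38 (interval 1.22 to 1.57). With every list reduced to its 7361 strongest peaks the ratio was 0.031. Overlap was commoner than near misses: the ratio fell to 0.287 at 1 to 500 bp and to 0.486 at 501 to 1000 bp and returned to 1.01 at 2001 to 5000 bp. From the outermost to the innermost zone it was 0.345, 0.797, 0.981 and 0.844. Of the 407 H3K27me1 peaks on H3K9ac, 17.9% were also on a WT H3K27me1 peak and 7.62% on a WT H3K9ac peak, against 10.8% and 0.249% of the other 8840.

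**Figure D1:**
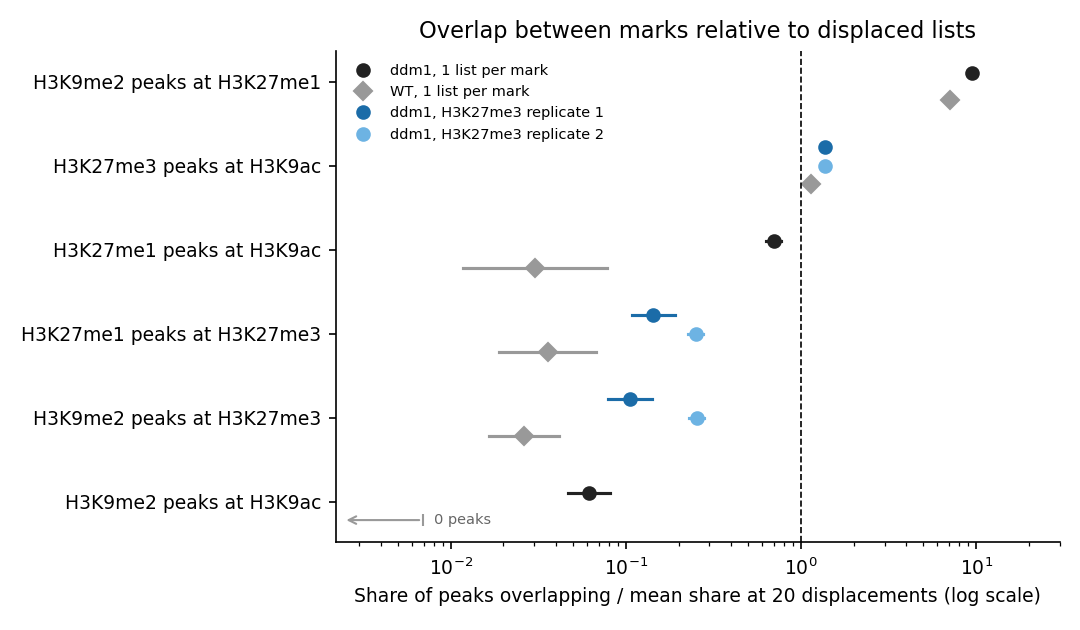
Ratio of the observed share of overlapping peaks to the mean share at 20 displacements, on a log axis, for 6 mark pairs. Points are *ddm1* values (2 H3K27me3 replicates in blue), diamonds are WT values and bars are Wilson intervals divided by the mean displaced share; the arrow marks a pair with 0 overlapping WT peaks. Only the pairs H3K9me2 with H3K27me1 and H3K27me3 with H3K9ac lie to the right of 1 in both genotypes.

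H3K27me3 and H3K9ac were the remaining pair above 1 with the lists as deposited. With every list reduced to its 7361 strongest peaks the mean ratio fell below 1, to 0.398. In replicate 1, 15.9% of H3K27me3 peaks (5162 of 32491) touched an H3K9ac peak, a ratio of 1.37. In replicate 2 the share was 24.6% (11373 of 46317), a ratio of 1.36. The mean ratio was 1.37 ± 0.005 (SD, n = 2), and the WT ratio was 1.14 (6833 of 35712 peaks). The 2 replicates therefore gave nearly the same ratio, although their covered lengths were 23.6 and 128 Mb and 82.2% of replicate 1 peaks but 40.4% of replicate 2 peaks touched the other list. The ratio rose from the chromosome end to the middle, from 1.10 to 1.72 over the 4 zones in replicate 1 and from 1.14 to 1.57 in replicate 2. The peaks of H3K27me3 with H3K9ac were longer than those without, with medians of 784 and 476 bp in replicate 1 and 2470 and 742 bp in replicate 2. Longer peaks also met H3K9ac more often after displacement, so this difference in length is no sign of a preference. From the shortest to the longest quartile the ratio was 1.24, 1.40, 1.48 and 1.34 in replicate 1. In replicate 2 it fell (1.61, 1.55, 1.36 and 1.27). H3K27me3 peaks present in both replicates had ratios of 1.39 and 1.31, and those in 1 replicate had 1.26 and 1.45.

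The meeting of H3K9ac with the 2 lysine-27 marks depended on the strength of the H3K9ac peak. The H3K9ac list was divided into 4 quartiles by q-value, from the weakest to the strongest. At H3K27me3 replicate 1 the ratios were 1.70, 1.70, 1.61 and 0.740, and at replicate 2 they were 1.61, 1.60, 1.43 and 0.736. The strongest H3K9ac peaks thus met H3K27me3 less often than after displacement, whereas the other 3 quartiles met it more often, in both replicates. At H3K27me1 the ratios were 1.22, 1.09, 0.789 and 0.189, with intervals of 1.01 to 1.46 for the weakest quartile and 0.138 to 0.258 for the strongest. These intervals leave out the spread of the displaced shares. For the weakest quartile the observed share of 0.606% lay within the displaced range of 0.392% to 0.612%. At H3K9me2 all 4 quartiles lay far below 1 (0.063, 0.083, 0.087 and 0.007). The strongest peaks were longer and nearer to the ends, so the summits alone were also counted. From the weakest to the strongest quartile the summit ratios were 1.87, 1.88, 2.05 and 0.882 for replicate 1 and 1.66, 1.65, 1.51 and 0.774 for replicate 2. At H3K27me1 they were 1.55, 1.69, 1.61 and 0.618. The strongest quartile stayed below 1 for each list, whereas the fall over the other 3 quartiles at H3K27me1 was not found with summits.

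This split was not of equal size along the chromosomes. With quartiles taken separately in the outer 50% of each chromosome, the strongest quartile had ratios of 0.545 and 0.566 at the H3K27me3 replicates. In the middle 50% it had 1.29 and 1.12, so there the strongest peaks met H3K27me3 slightly more often than after displacement, but still less often than the weakest quartile (1.77 and 1.68). The WT lists had the same order, with ratios of 1.86, 1.66, 1.02 and 0.401 over the 4 quartiles of whole chromosomes. Of the H3K9ac peaks on H3K27me3, 38.9% in replicate 1 and 13.9% in replicate 2 touched a WT H3K9ac peak, against 42.3% and 51.3% of the H3K9ac peaks without it.

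**Figure D2:**
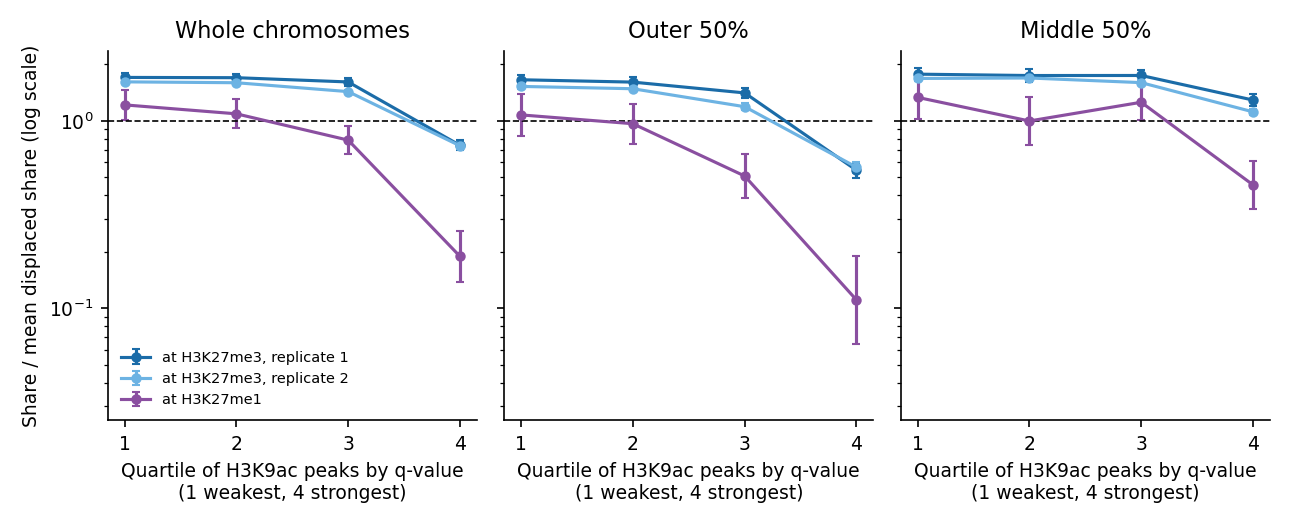
Ratio of observed to mean displaced overlap (log axis) for the 4 quartiles of *ddm1* H3K9ac peaks by q-value, at each H3K27me3 replicate and at H3K27me1, on whole chromosomes and with quartiles taken within the outer and the middle 50%. Bars are Wilson intervals divided by the mean displaced share; on whole chromosomes the strongest quartile falls to 0.740 and 0.736 at H3K27me3 and to 0.189 at H3K27me1.

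Distances told the same pairs apart beyond direct overlap. Around H3K9me2 peaks the ratio for the nearest H3K27me1 peak was 2.79 at 1 to 500 bp, 2.91 at 501 to 1000 bp and 1.9 at 1001 to 2000 bp. In WT the excess was weaker beside the peak (1.74, 1.38 and 1.08 in the same 3 classes). At 2001 to 5000 bp the *ddm1* ratio was 0.811. Only the nearest peak is counted, so this fall does not show where the excess ended. After displacements of 10 and 100 kb, 1.88% and 1.46% of H3K9me2 peaks met H3K27me1, against the mean displaced share of 1.31%. The median distance from an H3K9me2 peak to the nearest H3K27me1 peak was 18.8 kb, against 33.5 kb after displacement, and from H3K27me1 to H3K9me2 it was 25.8 kb against 44.4 kb. H3K27me3 peaks lay nearer to H3K9ac than after displacement (2.90 against 4.21 kb in replicate 1 and 2.53 against 4.02 kb in replicate 2). H3K9me2 peaks lay farther from H3K27me3 (19.9 against 14.1 kb and 20.2 against 12.8 kb), as did H3K27me1 peaks (21.1 against 15.7 kb and 20.8 against 13.9 kb).

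H3K9ac had the most peaks and was the nearest other mark of many, so the shares are read against displacement. With H3K27me3 replicate 1, the nearest other mark of an H3K9me2 peak was H3K27me1 in 36.5% of cases (19.7% after displacement), H3K9ac in 49.2% (55.0%) and H3K27me3 in 14.2% (24.2%). For H3K27me1 peaks it was H3K9me2 in 33.1% (15.2%), and for H3K27me3 peaks it was H3K9ac in 86.8% (76.9%). Replicate 2 gave 35.6%, 32.1% and 86.6% for the same 3 leading values. Each repressive mark of constitutive heterochromatin was thus the next neighbour of the other more often than after displacement with either replicate, and H3K27me3 less often.

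**Figure D3:**
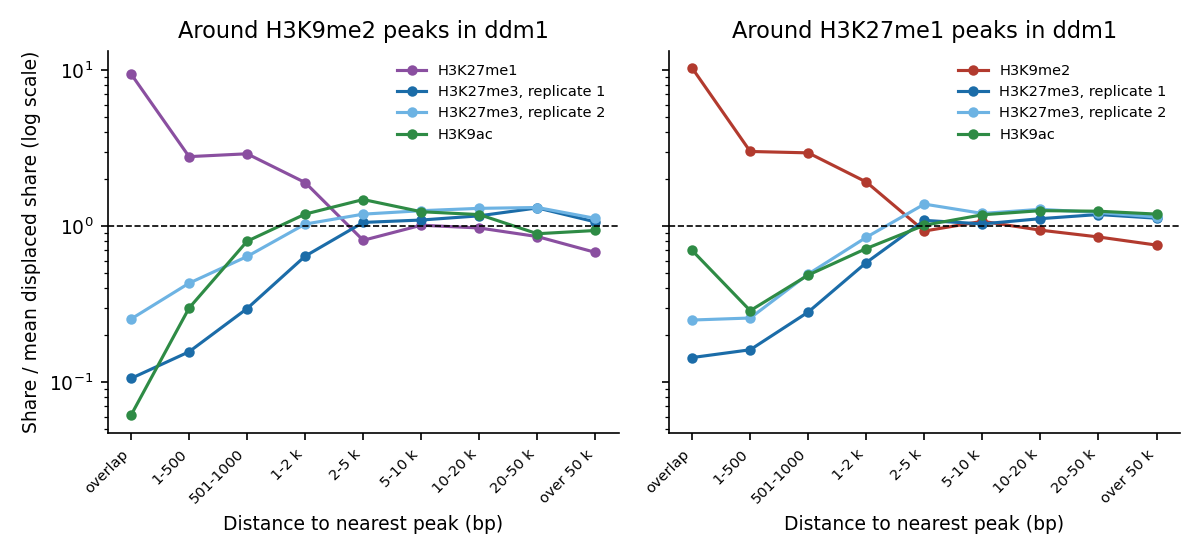
Ratio of observed to mean displaced share (log axis) by distance class to the nearest peak of each other mark, around H3K9me2 peaks (left) and H3K27me1 peaks (right) in *ddm1*. H3K9me2 and H3K27me1 exceed 1 out to 2 kb from each other, H3K27me3 and H3K9ac stay below 1 within 1 kb, and around H3K27me1 the H3K9ac curve is higher at overlap (0.698) than at 1 to 500 bp (0.287).

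The long H3K27me3 peaks of replicate 2 were examined separately. This list had 2553 peaks over 10 kb, up to 185363 bp, that covered 57.0 Mb, and replicate 1 had none. Measured by covered length, these long peaks held H3K27me1 and H3K9me2 at 0.109 and 0.140 times the displaced amount. In the 24498 peaks of up to 1 kb the same ratios were 0.715 and 0.394. Long H3K27me3 stretches were thus the most depleted of both marks. H3K9ac was likewise lower in the long peaks (1.10) than in the short ones (1.82), but stayed above 1 in both. At least 1 H3K9ac peak was held by 77.3% of the long peaks, against 65.8% after displacement, a ratio of 1.17.

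Counted by base, marks rarely coincided. With H3K27me3 replicate 1 the 4 marks covered 72.0 Mb, or 8.97% of the chromosomes, and 96.8% of this length had a single mark. With replicate 2 they covered 171 Mb (21.3%), of which 95.4% had a single mark. In WT 95.6% of 82.7 Mb did. The largest class of shared bases was H3K27me3 with H3K9ac (1956 kb and 7308 kb for the 2 replicates), followed by H3K27me1 with H3K9me2 (223 kb and 205 kb). Bases with 3 marks came to 2.22 kb with replicate 1 and 28.7 kb with replicate 2, and in WT to 0.172 kb. Bases with all 4 came to 0 and 0.115 kb.

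The longest shared stretch of each mark pair shows how the peaks lay on each other, in coordinates of the M82 assembly. H3K9me2 and H3K27me1 shared 2668 bp at chr2:1452-4119, at the very start of the chromosome, where the H3K9me2 peak had a fold enrichment of 1.79 and the H3K27me1 peak 1.47. A peak of H3K27me3 replicate 2 (fold 21.1, 8606 bp) covered the same stretch and replicate 1 had none there. H3K27me3 of both replicates and H3K9ac shared 2420 bp at chr2:51111797-51114216 (folds 3.17, 4.39 and 5.88), where the WT list had H3K9ac over all 2420 bp and H3K27me3 over 2245 bp. This pair had 4834 shared stretches in all.

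H3K9me2 and H3K27me3 of both replicates had 35 shared stretches. The longest spanned 913 bp at chr6:41940385-41941297, with folds of 3.13 for H3K9me2 and 1.64 and 4.61 for H3K27me3. H3K9me2 and H3K9ac had 53 shared stretches, the longest of 688 bp at chr3:9016027-9016714 (folds 2.87 and 6.44), where no WT list had a peak. H3K27me1 and H3K9ac shared 536 bp at chr8:66120698-66121233 (folds 3.25 and 3.74), inside an H3K27me3 peak of replicate 1. The stretch was also covered by H3K9ac and H3K27me3 in WT, but not by H3K27me1. H3K27me1 and H3K27me3 of both replicates shared 450 bp at chr3:43128452-43128901, and an H3K9ac peak of 184 bp (chr3:43128630-43128813) lay inside it, the longest of 5 stretches with these 3 marks. H3K27me1, H3K9me2 and H3K9ac met in 3 stretches, the longest of 197 bp at chr1:75263243-75263439. No stretch had H3K9me2 together with H3K27me3 of both replicates and a further mark. No annotation of this assembly was used here, so the genes or repeats at these places are not named.

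At the scale of megabases the picture changed. Covered length was summed in 808 windows of 1 Mb, which share chromosome position, base composition and mappability, and the correlations are descriptions across windows. H3K27me1 and H3K9me2 varied together (Pearson's r = 0.41, between 0.16 and 0.67 within each of the 12 chromosomes, WT 0.54). H3K27me1 and H3K9ac varied inversely (r = -0.36, WT -0.61), and so did H3K27me1 and H3K27me3 (r = -0.34 and -0.32 for the 2 replicates, WT -0.52). H3K9me2 and H3K9ac were nearly unrelated in *ddm1* over all windows (r = -0.10), whereas the WT lists had r = -0.62. Within chromosomes the *ddm1* value lay between -0.47 and 0.18 and was above 0 on 5 of 12, and by peak number r was -0.21. The avoidance of these 2 marks at the level of single peaks was therefore not matched by a uniform inverse distribution over megabases in the mutant.

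The 2 H3K27me3 replicates differed at this scale. Replicate 1 varied with H3K9ac (r = 0.45, above 0 on 11 of 12 chromosomes) and replicate 2 varied against it (r = -0.21, below 0 on all 12 chromosomes), with a mean of 0.12 ± 0.46 (SD, n = 2). By Spearman's rank correlation replicate 1 kept its value (0.45) and replicate 2 was near 0 (-0.05). The WT value was 0.80. The same pair had given nearly equal overlap ratios in both replicates. When windows were ordered by H3K9ac into 5 groups, median H3K27me3 in replicate 1 rose from 10.1 to 37.4 kb per window from the lowest to the highest group. In replicate 2 it was 44.6, 159, 178, 139 and 55.0 kb, highest in the middle groups. H3K9me2 likewise rose and then fell over the 5 groups (4.95, 7.14, 8.32, 9.86 and 5.70 kb).

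**Figure D4:**
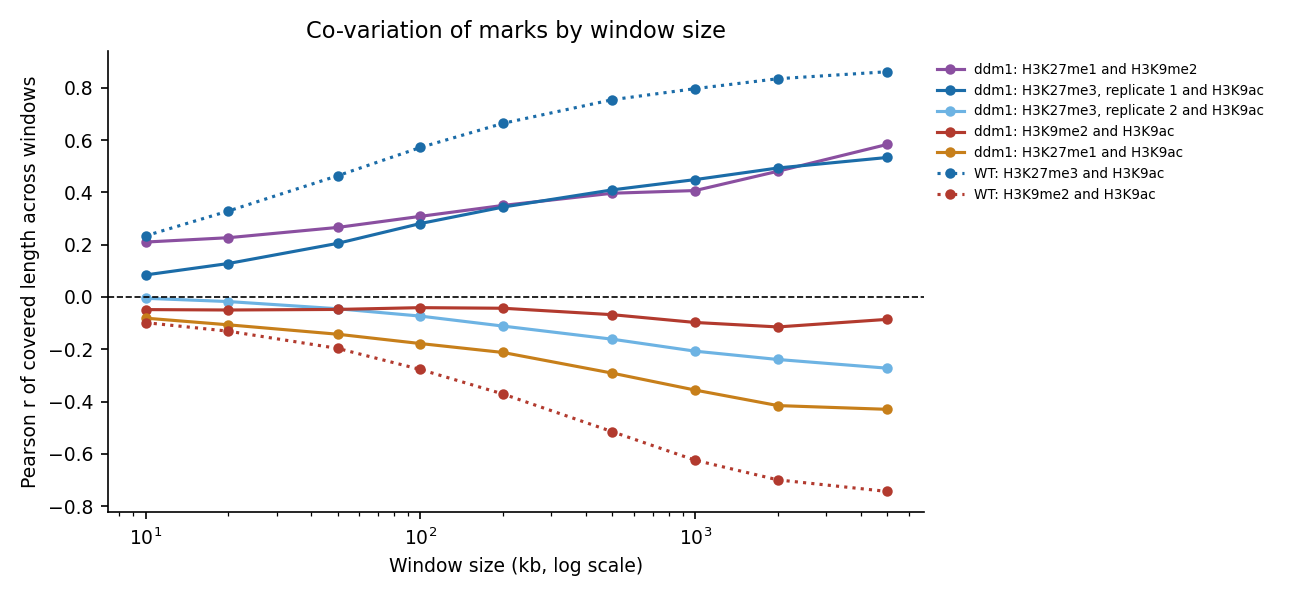
Pearson correlation across windows of the covered lengths of 2 marks, for window sizes from 10 kb to 5 Mb (log axis), with *ddm1* pairs as solid and WT pairs as dotted lines. H3K27me3 with H3K9ac rises to 0.45 at 1 Mb in replicate 1 and falls to -0.21 in replicate 2, and H3K9me2 with H3K9ac stays near 0 in *ddm1* while it falls with window size in WT.

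The replicates also differed at other window sizes. Up to 500 kb the sign in replicate 2 depended on the measure, and from 1 Mb upward it was below 0 by both measures. From windows of 10 kb to 5 Mb, r between H3K27me3 and H3K9ac went from 0.08 to 0.53 in replicate 1 and from -0.0050 to -0.27 in replicate 2. By Spearman's rank correlation replicate 2 was above 0 from 10 kb (0.09) to 500 kb (0.03), highest at 50 kb (0.14), and reached -0.15 at 5 Mb, and replicate 1 was higher at each size (0.12 to 0.54). For H3K27me1 and H3K9me2 Pearson's r went from 0.21 to 0.58. For H3K9me2 and H3K9ac Pearson's r stayed between -0.04 and -0.11 at all 9 sizes (-0.06 to 0.12 by rank), whereas in WT it went from -0.10 to -0.74.

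Single windows showed the extremes. The window with most H3K9me2 was chr11:19000001-20000000 (46.7 kb), which also ranked 3 for H3K27me1 (9.80 kb) and had no peak of H3K27me3 in either replicate and none of H3K9ac. The window with most H3K9ac was chr2:53000001-54000000 (208 kb), with 52.4 and 83.1 kb of H3K27me3 and 3.13 kb of H3K9me2. The window with most H3K27me3 in replicate 1 was chr2:41000001-42000000 (98.6 kb), which ranked 7 for H3K9ac (161 kb). In replicate 2 it was chr10:45000001-46000000, with 825 kb of H3K27me3 and 39.0 kb of H3K9ac (rank 465). The window with most H3K27me1 was chr10:15000001-16000000 (11.0 kb), with 3.04 kb of H3K9ac.

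With the lists as deposited, the marks had an order along the chromosomes in *ddm1*, but were close together. Distance from the chromosome end is given as a percentage of the way to the middle (100), weighted by covered length. H3K9ac lay nearest to the ends (39.1%), followed by H3K27me3 replicate 1 (46.0%), H3K9me2 (48.2%), H3K27me1 (51.9%) and H3K27me3 replicate 2 (54.2%). H3K9ac was nearest to the ends on 12 of 12 chromosomes. H3K27me1 lay deeper than H3K9me2 on 11 of 12, the exception being chromosome 2 (53.0% and 58.2%). H3K27me3 replicate 2 lay deeper than replicate 1 on 12 of 12. The place of H3K27me3 in the order was thus set by the replicate: between H3K9ac and H3K27me1 in replicate 1 on every chromosome, and beyond H3K27me1 in replicate 2 on 10 of 12.

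The WT marks were spread over a wider range, with H3K9ac at 23.9%, H3K27me3 at 33.9%, H3K9me2 at 56.2% and H3K27me1 at 57.3%. H3K9me2 and H3K27me1, the innermost marks of the WT, were 32.3 to 33.4 percentage points from H3K9ac there and 9.14 to 12.8 points in *ddm1*. The *ddm1* distances depended on the threshold. With a q of 0.01 H3K9me2 lay at 42.3% and H3K9ac at 39.0%, and with lists of equal size they lay at 48.2% and 27.1%. The WT lists were not cut in these ways. The full order H3K9ac, H3K27me3 replicate 1, H3K9me2, H3K27me1 and H3K27me3 replicate 2 was found on 6 chromosomes, and on 4 others H3K9me2 and replicate 1 changed places.

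**Figure D5:**
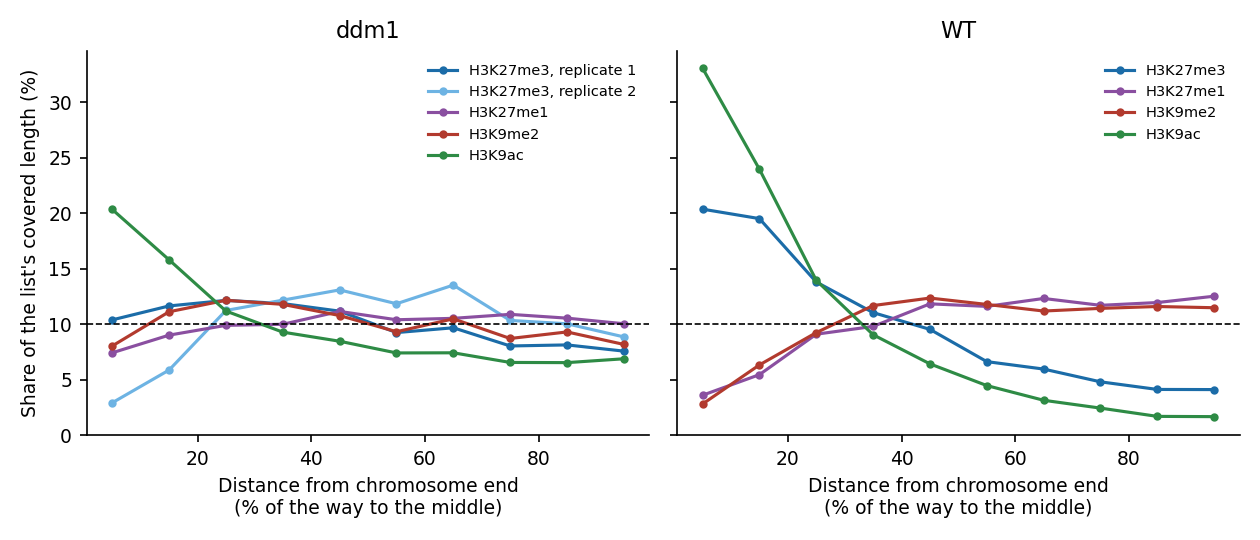
Share of each list's covered length (%) in 10 classes of distance from the chromosome end, in *ddm1* (left) and WT (right). The dashed line marks an even spread of 10% per class; in *ddm1* H3K9ac is the mark with most of its length next to the ends (20.4%), and replicate 2 of H3K27me3 has the least there (2.93%).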

How the data were processed

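Chromatin of tomato leaves (M82 and *ddm1*) was immunoprecipitated with an antibody against each of 4 histone marks. The authors trimmed reads with Trimmomatic (0.38 in the submitters' processing notes), aligned them to the M82 V1.0 assembly with Bowtie2 (2.3.5 in those notes), handled alignments with SAMtools 1.9 and identified peaks with MACS3, with a q of 0.05, an extension size of 150 bp and, for H3K27me3, broad mode. The control and any pooling of replicates are not given in the sources used here. Each deposited list gives, per peak, its position, a score, the fold enrichment (a ratio of signal to background), and −log10 p and −log10 q values computed by the authors. Depth is unknown, so no value was scaled to the number of reads.

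From these lists overlaps (at least 1 bp), distances, covered lengths and 1-Mb windows were computed with Python 3.11.15, numpy 2.4.6 and pandas 2.3.3 on the 12 chromosomes, whose lengths were taken as the last peak end in any list. Lists were displaced by 100 to 1000 kb in steps of 100 kb in both directions, with wrapping at the ends. The interval functions were tested on simulated data. With 1 list per mark (2 for H3K27me3) no significance test was run. The regions named are the longest shared stretch of each mark pair and of each combination of 3 or more marks, and the window with most of each mark. Alternatives changed the q-value, minimum overlap, list size, displacement, peak length, chromosome zone, window size, measure of correlation and replicate. No feature was excluded on low values. The members and lists were chosen with earlier results of these data known.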

Additional observations from a re-analysis of the deposited data

Results flagged for a closer look

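The *ddm1* H3K9ac list held 38 peaks off the 12 chromosomes, which the comparisons above do not use, against 5 in the WT H3K9ac list. Of the 38, 35 lay on 12 unplaced contigs and 3 on the chloroplast sequence. The first H3K27me3 replicate of *ddm1* had 58 such peaks, fewer than the 124 of the WT H3K27me3 list. The other *ddm1* lists had 0.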

How the results depend on the processing

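The 6 overlap ratios stayed on their side of 1 in 63 of 65 alternative values. The exceptions were H3K27me3 with H3K9ac, which fell from 1.37 to 0.398 when every list was reduced to its 7361 strongest peaks, and H3K27me1 with H3K9ac, which went from 0.698 to 1.38 when H3K9ac summits replaced H3K9ac peaks. Values that moved by more than the replicate SD or the counting interval are given here. For H3K9me2 at H3K27me1 (9.44) they were 14.1 with a q of 0.01, 26.1 when 50% of the peak had to be shared, 7.82 and 10.1 with displacements of 10 to 100 kb and of 2 to 20 Mb, and 8.29 and 10.5 in the middle and outer 50% of chromosomes. For H3K9me2 at H3K9ac (0.061) they were 0.029 with a q of 0.01, 0.0085 with lists of equal size, and 0.087 and 0.045 in the middle and outer 50%. For H3K27me1 at H3K9ac (0.698) they were 0.031 with lists of equal size, 0.805 with an overlap of at least 50%, 0.623 with far displacements, and 0.914 and 0.541 in the middle and outer 50%. For H3K27me3 at H3K9ac they were 1.36 with peaks of at least 500 bp, 1.61 with an overlap of at least 50%, 1.30 and 1.40 with near and far displacements, 1.55 and 1.24 in the middle and outer 50%, and 1.56 with H3K9ac summits. Lists of equal size keep only the strongest peaks of H3K9ac (of 76513), H3K27me3 (of 32491 and 46317) and H3K27me1 (of 9247). These cuts were made together, and the part of each in the change was not tested. Without H3K27me3 replicate 1 or 2 the ratios ranged from 0.106 to 0.254 at H3K9me2, from 0.144 to 0.250 at H3K27me1 and from 1.36 to 1.37 at H3K9ac.

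In windows, H3K27me3 with H3K27me1 (-0.33) gave -0.30 with 0.5-Mb windows, -0.29 by Spearman's rank correlation, -0.27 by peak number, -0.29 with a q of 0.01 and -0.29 as the mean within chromosomes, and -0.34 to -0.32 without 1 replicate. H3K9me2 with H3K9ac (-0.10) turned to 0.11 by Spearman's rank correlation and to 0.044 with a q of 0.01, and was -0.21 by peak number. H3K27me3 with H3K9ac (0.12) was -0.21 without replicate 1 and 0.45 without replicate 2, and H3K27me3 with H3K9me2 ranged from -0.21 to -0.06 without 1 replicate. For marks with 1 list the spread was the SD over the 12 chromosomes. Distance from the chromosome end moved to 43.6% for H3K27me3 with lists of equal size (46.0% to 54.2% without 1 replicate), 42.3% for H3K9me2 with a q of 0.01, and for H3K9ac 43.2% by peak number and 27.1% with lists of equal size. The strongest quartile of H3K9ac at H3K27me3 went from 0.738 to 1.20 with quartiles taken in the middle 50%, a choice made after seeing the data. So were the summits of H3K9ac, the minimum H3K9me2 length of the WT list, and leaving out peaks in stretches of at least 100 kb free of H3K27me3 and H3K9ac. The last 2 of these moved no ratio past its spread. No paired analysis was possible because only the *ddm1* H3K27me3 group has numbered replicates.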

Other observations

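A few regions had H3K9me2 and H3K27me1 but neither H3K27me3 nor H3K9ac. They were chosen after the values had been seen and are given without a test. In *ddm1*, 8 of the 808 windows of 1 Mb had no peak of H3K9ac or of H3K27me3 in either replicate: 1 on chromosome 1 (35000001 to 36000000), 1 on chromosome 3 (from 13000001), 3 on chromosome 6 (from 9000001, 12000001 and 14000001), 1 on chromosome 8 (from 10000001) and 2 on chromosome 11 (from 19000001 and 20000001). The WT lists of H3K27me3 and H3K9ac were also empty in all 8. H3K9me2 covered 6.57 to 46.7 kb of them in *ddm1* (median 27.2 kb, against 7.24 kb in the other windows) and 7.87 to 29.5 kb in WT (median 14.4 kb, against 13.8 kb). H3K27me1 covered 0.656 to 9.80 kb in *ddm1* (median 3.47 kb, against 2.28 kb). H3K9me2 lay above its median over all windows in 7 of the 8 in *ddm1* and in 4 of the 8 in WT.

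The longest stretch without H3K27me3 and H3K9ac in *ddm1* measured 3046 kb (chr11:18086307-21132658). It held 146 H3K9me2 peaks that covered 117 kb and 83 H3K27me1 peaks that covered 18.8 kb, and in WT 54 H3K9me2 peaks (52.0 kb), 62 of H3K27me1 (13.3 kb), 3 of H3K27me3 and 1 of H3K9ac. Another, of 1839 kb (chr6:8813685-10652402), held 82 H3K9me2 peaks in *ddm1* and 30 in WT. Not all long stretches were of this kind, since one of 1119 kb (chr4:13249135-14367648) had 24 H3K27me1 peaks and no H3K9me2 peak in *ddm1*, against 8 H3K9me2 peaks in WT. In all there were 349 such stretches of at least 100 kb (75.3 Mb, 9.40% of the chromosomes). Within them H3K9me2 covered 8.35 kb per Mb, close to the 8.06 kb per Mb elsewhere, whereas H3K27me1 covered 4.06 against 2.36 kb per Mb. The same stretches held 0.288% of WT H3K27me3 peaks and 0.061% of WT H3K9ac peaks. Whether reads from repeats were treated alike in all lists is not given in the sources used here, and its part in these empty stretches was not tested.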
